A study of Mus musculus with 2 samples.

Results

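The genes described here encode 10 enzymes that make serine, glycine, proline, asparagine and cysteine: Asns, Phgdh, Psat1, Psph, Shmt1, Shmt2, Mthfd2, Aldh18a1, Pycr1 and Cth. They were chosen by name for their place in these pathways, with earlier results of these data known. They are 10 of the 31053 genes in the count matrices. Small B16F10 tumours, grown under the skin from a melanoma line of C57BL/6 mice, were profiled by single-cell RNA sequencing. The 2 libraries compare Atf4 WT/WT hosts (WT) with Atf4 Δ/Δ hosts (KO), and each was made from 2 pooled tumours of mice aged 11 weeks, with both sexes pooled per the labels. The KO hosts carried loxP-flanked Atf4 with the tamoxifen-inducible Rosa26::CreERT2, which acts throughout the body, and the WT hosts carried the same Cre and also received tamoxifen. The injected melanoma cells kept their own Atf4 in both libraries, so genotype differed in the host cells only. With 1 library per genotype there is no replicate check: no test was possible, every interval covers counting error only, and a difference between WT and KO cannot be told apart from a difference between these pools.

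Cells make serine from a glycolytic intermediate in 3 successive steps catalysed by Phgdh, Psat1 and Psph. Serine is then split into glycine and a one-carbon unit by Shmt1 in the cytosol and Shmt2 in mitochondria, and Mthfd2 carries the one-carbon unit onwards inside mitochondria. Asns makes asparagine from aspartate, Aldh18a1 and Pycr1 act at the start and the end of proline synthesis from glutamate, and Cth releases cysteine at the end of transsulphuration. Several of these genes are known targets of ATF4, the transcription factor of the Integrated Stress Response (ISR), which binds C/EBP-ATF response elements when amino acids run short or protein folding is disturbed. Fibroblasts use glycine and proline in bulk for collagen.

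Promoter sequences are shown because 2 of the 9 members with an entry in the RefSeq promoter table (Asns and Pycr1) carry the letters TGATGNAA, the core of the C/EBP-ATF element, on either strand between 250 bases before and 50 bases after the start. The table covers build GRCm38.p6 and holds no entry for Cth. The same letters stand in 3.97% of all 32851 promoters of this length, and in 9 of the 26 ISR target genes outside the members that have an entry. A match is a description of letters, not of binding. The sequences below run 5′ to 3′ on the strand of the gene, with the matched letters in capitals. The Asns stretch is chr6:7693214-7693243, minus strand, with the match starting 23 bases before the RefSeq start, inside an exon of the GENCODE annotation. The Pycr1 stretch is chr11:120643784-120643911, minus strand, with the match starting 103 bases before the start and outside any annotated exon.
Asns: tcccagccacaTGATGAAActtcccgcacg
Pycr1: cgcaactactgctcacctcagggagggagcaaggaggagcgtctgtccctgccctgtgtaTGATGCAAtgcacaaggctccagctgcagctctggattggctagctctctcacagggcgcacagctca

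The WT library held 6304 barcodes with 38417113 UMIs and the KO library 5474 barcodes with 38290024 UMIs. After the study's filters 3861 WT and 3557 KO cells remained, with a median of 3920 and 6279 UMIs. Cells were assigned by marker genes to melanoma-like (1812 WT, 1946 KO), cancer-associated fibroblast (CAF)-like (187, 207), macrophage-like (823, 657), monocyte-like (287, 231), other myeloid (240, 116) and endothelial-like cells (70, 26). The 8 and 6 T/NK-like cells were too few for levels, and 434 and 368 cells remained unassigned. Each defining marker of the melanoma, CAF and myeloid lists was detected in its own class in both libraries. Atf4 itself was 228 and 209 CPM (UMIs scaled to a fixed total per class and library) in WT and KO melanoma-like cells, 254 and 43.1 CPM in CAF-like cells and 177 and 37.8 CPM in macrophage-like cells. Both libraries are labelled as pooled from male and female mice, but Y-linked genes had 0 UMIs in every WT class, against 63 and 128 UMIs in KO CAF-like and macrophage-like cells, so host cells of the libraries also differed in sex. A total of 10 barcodes occurred in both libraries. Melanoma transcripts were also found in host cells: from melanoma markers, free RNA was estimated at 4.54% and 5.34% of the UMIs of WT and KO CAF-like cells and 6.14% and 6.63% of those of macrophage-like cells.

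In melanoma-like cells, which carry intact Atf4 in both libraries, 9 of the 10 enzymes were higher in tumours from KO hosts and 4 of them (Asns, Psph, Pycr1 and Cth) at least 1.5-fold. None was at least 1.5-fold lower, and Shmt1 was the 1 member below WT. Of 11132 genes with at least 50 UMIs in these cells, 7.0% were at least 1.5-fold higher and 3.63% at least 1.5-fold lower in KO. The median log2 KO/WT ratio was 0.41 over the members and 0.02 over all these genes. Since the members were chosen with earlier results of these data known, this comparison is a description and not a test.

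Asns (chr6:7675169-7693254 on GRCm38, minus strand, as all members), which converts aspartate to asparagine, had 2233 UMIs in WT and 3997 in KO melanoma-like cells, a level of 110 and 192 CPM. The KO level was 1.74-fold that of WT, a log2 ratio of 0.80 (95% interval 0.73 to 0.88). This interval lay wholly above 1.5-fold, but with 2000 to 10000 UMIs per cell it was 0.51 to 0.81 and reached below 1.5-fold.

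The serine pathway was higher at each of its steps, and most at the last. Phgdh (chr3:98313170-98339990), which commits 3-phosphoglycerate to serine, was at 217 CPM in WT against 264 CPM in KO, a log2 ratio of 0.29 (0.23 to 0.34). Psat1 (chr19:15904678-15947337), the aminotransferase of the next step, was 75.2 and 98.7 CPM, a log2 ratio of 0.39 (0.30 to 0.49). Psph (chr5:129765558-129787449), the phosphatase that releases serine, rested on 1467 and 2757 UMIs and was 72.2 and 132 CPM, a log2 ratio of 0.87 (0.78 to 0.96). The Psph interval did not overlap those of Phgdh and Psat1, so the last step differed more between the libraries than the earlier steps.

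The cytosolic and mitochondrial glycine enzymes lay on opposite sides of WT. Shmt1 (chr11:60788104-60811718), the cytosolic hydroxymethyltransferase, was 24.4 CPM in WT and 17.6 CPM in KO from 495 and 368 UMIs, a log2 ratio of -0.47 (-0.66 to -0.27). Shmt2 (chr10:127517123-127522444), its mitochondrial counterpart, was 72.9 and 88.0 CPM, a log2 ratio of 0.27 (0.17 to 0.37). Mthfd2 (chr6:83305691-83325908), the mitochondrial dehydrogenase and cyclohydrolase downstream of Shmt2, was 170 and 228 CPM, a log2 ratio of 0.43 (0.36 to 0.49). The mitochondrial pair was thus higher and the cytosolic enzyme lower in KO, each beyond counting error.

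Of the proline enzymes, Aldh18a1 (chr19:40550257-40588463), which makes the glutamate semialdehyde that leads to proline, was 16.6 CPM in WT and 20.3 CPM in KO, a log2 ratio of 0.29 (0.08 to 0.50). Pycr1 (chr11:120635712-120643769), the mitochondrial reductase of the last step, rested on 37 WT and 137 KO UMIs. Its level was 1.82 and 6.57 CPM, a log2 ratio of 1.85 (1.32 to 2.42), the largest of the 10 members. Cth (chr3:157894248-157925077), which cleaves cystathionine to cysteine, had 273 and 437 UMIs, 13.4 and 21.0 CPM, a log2 ratio of 0.64 (0.42 to 0.86). Overlapping annotated genes on the same strand, with which reads cannot always be told apart, exist for Mthfd2, Aldh18a1 and Cth.

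**Figure D1:**
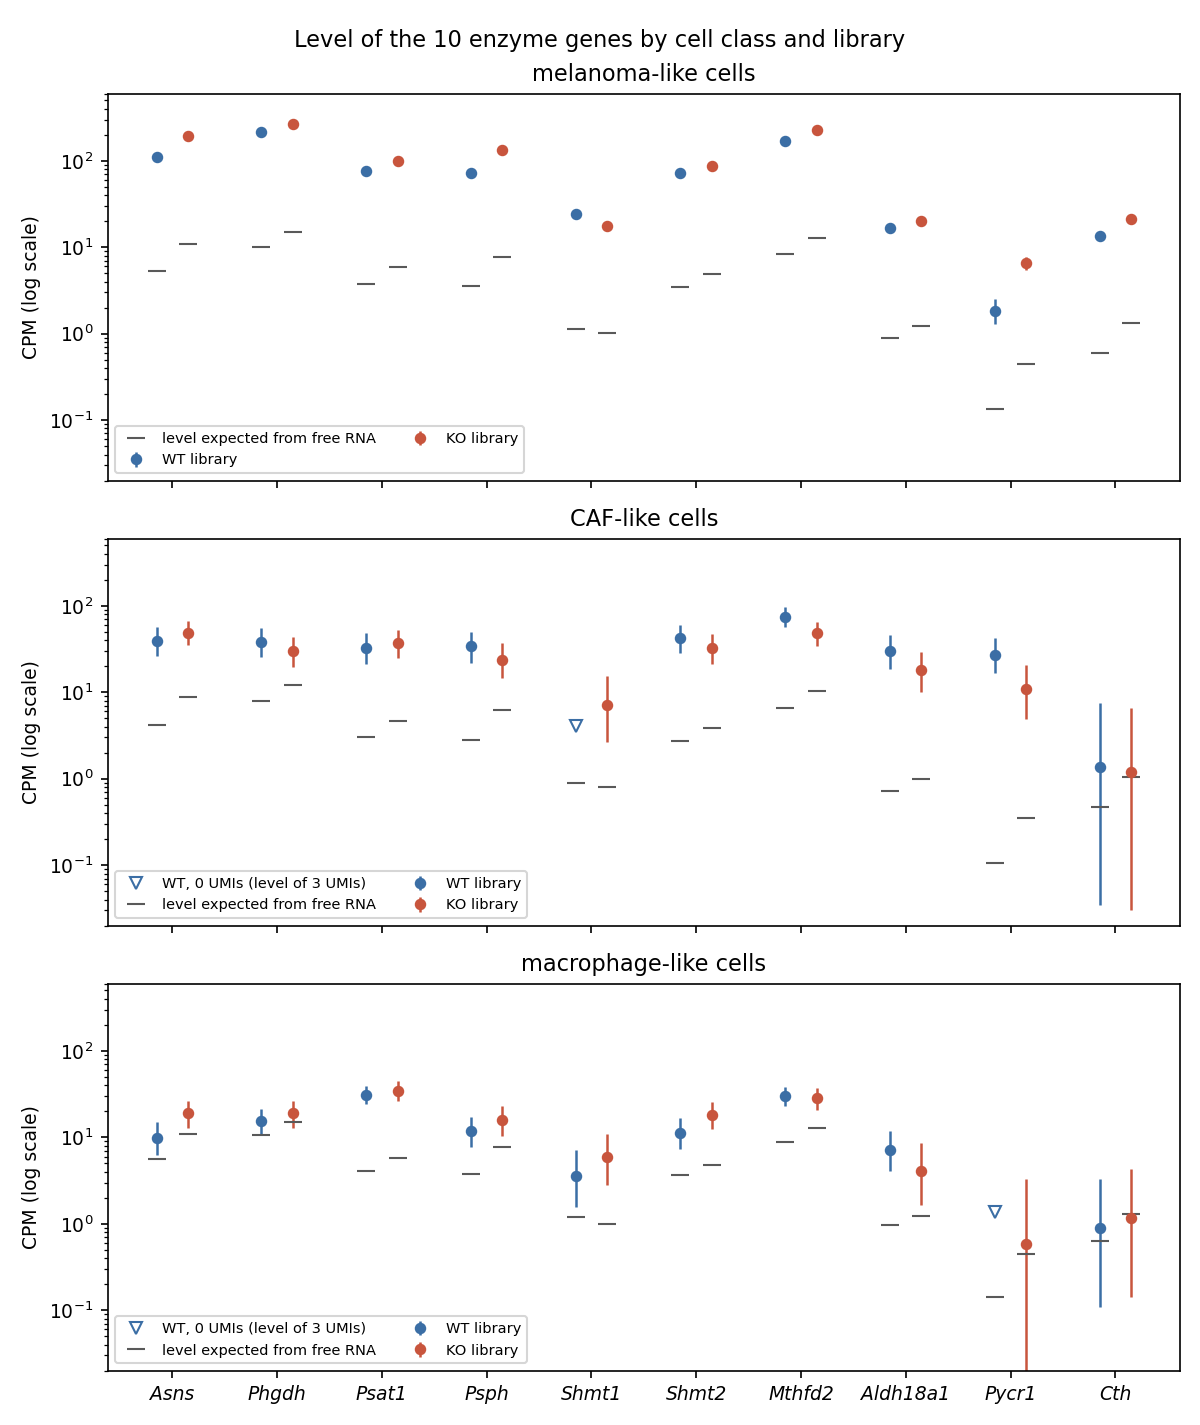
Level of each enzyme gene in CPM (log scale) in melanoma-like, CAF-like and macrophage-like cells of the WT (blue) and KO (red) library, with 95% Poisson intervals. Grey dashes give the level expected from free RNA, and open triangles mark 0 UMIs, drawn at the level of 3 UMIs. In melanoma-like cells each KO point except Shmt1 lies above WT, and in macrophage-like cells Asns and Phgdh lie close to the free RNA level.

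The difference was also seen in how many melanoma-like cells held a transcript. After thinning each cell to 2000 UMIs, an Asns UMI was found in 18.3% of 1699 WT cells (95% exact interval 16.5 to 20.2) and in 30.6% of 1835 KO cells (28.5 to 32.7). The share with a Psph UMI was 14.2% and 21.1%, and that with a Shmt1 UMI 4.53% and 2.89%. Unthinned, with median depths of 11358 and 10685 UMIs, Asns was seen in 58.3% of WT and 70.8% of KO cells. In macrophage-like cells, which should lack melanoma transcripts, Asns was seen in 2.38% and 3.33% of cells at 2000 UMIs and the abundant melanoma gene Dct in 41.0% and 35.0%, with median depths of 2452 and 2419 UMIs. The upper end of the distribution was longer in KO as well. At 3000 UMIs per cell, 3 or more Asns UMIs were found in 1.68% of WT and 4.36% of KO cells and 3 or more Psph UMIs in 0.54% and 2.51%. The variance of Psph counts over their mean was 1.14 in WT and 1.55 in KO, whereas for Psat1 it was 1.03 and 1.05.

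Within melanoma-like cells Asns, Mthfd2, Psph, Phgdh, Psat1 and Cth were higher in cells with more UMIs of other ISR target genes in both libraries. Shmt2, Aldh18a1 and Pycr1 were so beyond counting error in KO, whereas in WT the intervals of Shmt2 and Aldh18a1 included 0 and Pycr1 had too few UMIs for a ratio. Cells with at least 3000 UMIs (1666 WT, 1791 KO) were thinned to 3000 and divided into 3 bins of like size (lowest, middle and highest) by the summed UMIs of 34 ISR target genes that include no member. The bins are ranges of a score (0 to 5, 6 to 9 and 10 to 35 UMIs) and not cell types: 778 cells of 3457 lay at the lower and 420 at the upper boundary, and the median cell of each bin had 0 UMIs of host markers. The highest bin held 17.3% of WT and 38.6% of KO cells.

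Asns was 82.2, 103 and 247 CPM from the lowest to the highest bin in WT and 104, 150 and 321 CPM in KO. Highest over lowest was 3.0-fold in WT and 3.08-fold in KO, with overlapping intervals. Mthfd2 was 119, 162 and 336 CPM in WT and 129, 193 and 357 CPM in KO, and its KO/WT log2 ratio within the highest bin was 0.09 (-0.11 to 0.29).

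For Psph, Phgdh and Shmt2 the interval of the KO/WT ratio excluded 0 in the cells with the highest score and included 0 in the others. The median score within the highest bin was 12 in WT and 13 in KO. Psph was 61.0, 69.0 and 121 CPM in WT and 73.5, 80.7 and 245 CPM in KO. Its log2 ratio was 0.27 (-0.12 to 0.65) in the lowest, 0.23 (-0.11 to 0.57) in the middle and 1.02 (0.71 to 1.33) in the highest bin. Phgdh was 201, 209 and 278 CPM in WT and 186, 211 and 342 CPM in KO. Its log2 KO/WT ratio was -0.11 (-0.34 to 0.11) in the lowest and 0.30 (0.08 to 0.51) in the highest bin. That of Shmt2 was -0.09 (-0.49 to 0.30) in the lowest, -0.01 (-0.36 to 0.35) in the middle and 0.40 (0.01 to 0.80) in the highest bin. For Psph the intervals of the highest and the lower bins did not overlap. Cth was 27.7 and 33.2 CPM in the highest bin, 1.90-fold the lowest in WT and 4.23-fold in KO. The intervals of these 2 folds overlapped (log2 0.10 to 1.74 and 1.15 to 3.15), and the lowest KO bin held 11 UMIs. Shmt1 did not follow the score beyond counting error, with log2 highest over lowest of -0.80 (-1.89 to 0.17) in WT and -0.17 (-1.09 to 0.77) in KO. Atf4 in the highest bin was 369 CPM in WT and 304 CPM in KO.

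Shmt1 was higher in cells with more S phase transcripts and also in those with more G2/M transcripts. In bins by 16 S phase genes it was 7.52, 24.5 and 26.9 CPM in WT and 6.65, 25.8 and 20.1 CPM in KO, and the highest bin was 3.58-fold and 3.02-fold the lowest. Its KO/WT log2 ratio was -0.18 (-1.33 to 1.02) in the lowest, 0.07 (-0.62 to 0.77) in the middle and -0.42 (-1.15 to 0.28) in the highest bin. These rested on 12 and 17, 37 and 38, and 51 and 27 UMIs, and thinned counts this small could not exclude 0 in any bin. The lowest bin held 31.9% of WT and 47.6% of KO cells, and all 16 S phase genes lay below WT in KO melanoma-like cells (median log2 ratio -0.44). Asns ran the other way, at 0.658 of its lowest-bin level in the highest bin in WT and 0.663 in KO. Its KO/WT log2 ratio was 0.71 (0.50 to 0.93) in the lowest bin of the S phase score, 0.55 (0.25 to 0.85) in the middle and 0.72 (0.44 to 1.01) in the highest. Asns was thus higher in KO in each bin, beyond counting error. By the score of 16 G2/M genes, the highest bin of Shmt1 was 3.69-fold the lowest in WT and 2.66-fold in KO. For Asns the highest G2/M bin was 0.677 of the lowest in WT and 0.632 in KO.

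**Figure D2:**
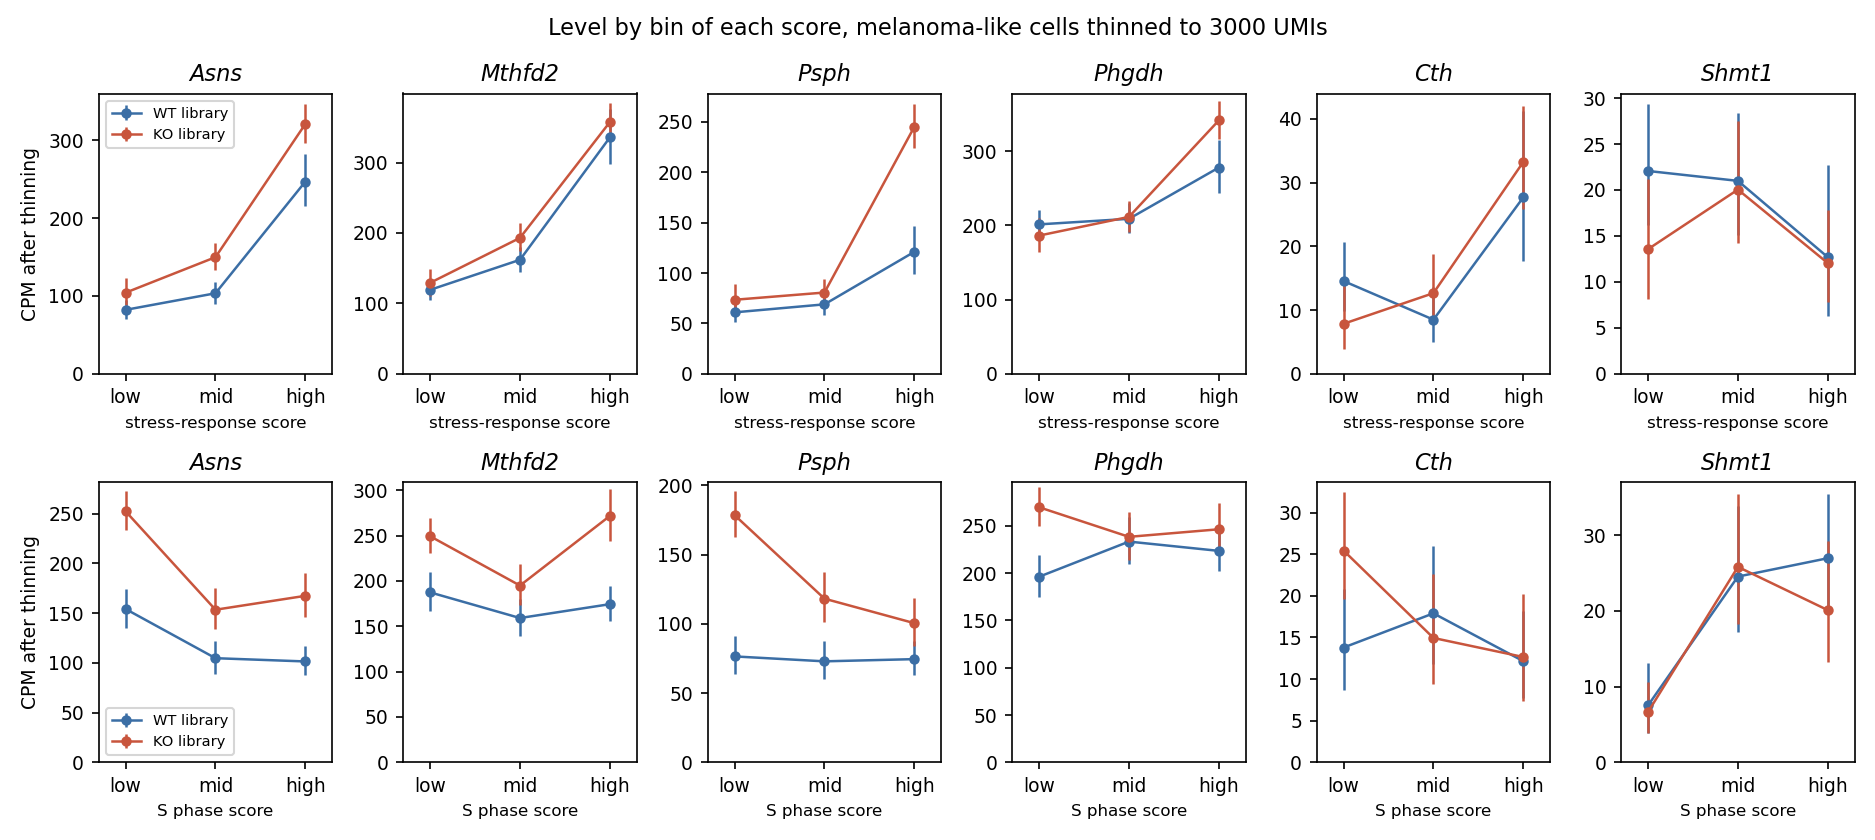
CPM of 6 enzyme genes in bins of melanoma-like cells (low, mid, high) by the score of ISR target genes (upper row, stress-response score) and by the S phase score (lower row), for the WT (blue) and KO (red) library with 95% Poisson intervals. Asns, Mthfd2, Psph and Cth are highest in the bin with the highest stress-response score in both libraries, and Shmt1 is lowest in the bin with the lowest S phase score.

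Division by 12 hypoxia genes, which were on the median 0.18 higher on the log2 scale in KO, separated the members again. In WT, Mthfd2 and Asns were 1.55-fold and 1.38-fold higher in the most than in the least hypoxic bin, whereas Phgdh was 0.774 and Shmt1 0.462 of the level in the least hypoxic bin. In KO the same ratios were 1.12 for Mthfd2, 1.10 for Asns and 0.567 for Shmt1, with intervals that included no difference, and 0.799 for Phgdh. Psat1 was 0.719 of its least hypoxic level in KO and 1.18-fold that level in WT, where the interval included no difference. The KO/WT log2 ratio of Asns was 0.95 (0.70 to 1.21) in the least and 0.62 (0.37 to 0.87) in the most hypoxic bin, and that of Mthfd2 0.67 (0.45 to 0.89) and 0.20 (-0.01 to 0.42). Melanoma markers moved too: the 5 markers summed to 12410 CPM in the WT and 9568 CPM in the KO library, and none was at 0. The median mitochondrial share was 6.04% and 5.38%. Their part in the result was not tested.

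Cells with little mitochondrial RNA were mostly from the KO library and differed from the rest in some of these enzymes. Under 1% mitochondrial UMIs there were 11 WT and 83 KO melanoma-like cells. In the KO cells Asns was 404 CPM, Psph 311 CPM and Cth 88.5 CPM, against 185, 126 and 18.7 CPM in KO melanoma-like cells with 1% or more. Psat1 (114 against 98.2 CPM) and Aldh18a1 (24.0 against 20.2 CPM) differed less, with overlapping intervals. Shmt1 (9.0 against 17.9 CPM, from 6 UMIs under 1%) and Shmt2 (75.0 against 88.4 CPM, from 50 UMIs) had lower values. Their intervals overlapped too (Shmt1 3.30 to 19.6 and 16.1 to 19.9 CPM, Shmt2 55.7 to 98.9 and 84.4 to 92.6 CPM). A lower level of Shmt1 or Shmt2 was thus not shown beyond counting error. Without all cells under 1%, an alternative chosen after seeing the data, the melanoma-like log2 ratio was 0.75 for Asns, 0.81 for Psph, 1.74 for Pycr1 and 0.48 for Cth, so Cth no longer reached 1.5-fold. The cells that were high for no class (154 WT, 219 KO) had a like pattern. Asns was 112 CPM in WT and 301 CPM in KO, Psph 74.4 and 217 CPM and Cth 10.1 and 69.5 CPM, the last from 3 and 75 UMIs. In the same cells the stress genes Nupr1 and Atf5 were 81.1 and 476 CPM and 64.2 and 172 CPM.

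**Figure D3:**
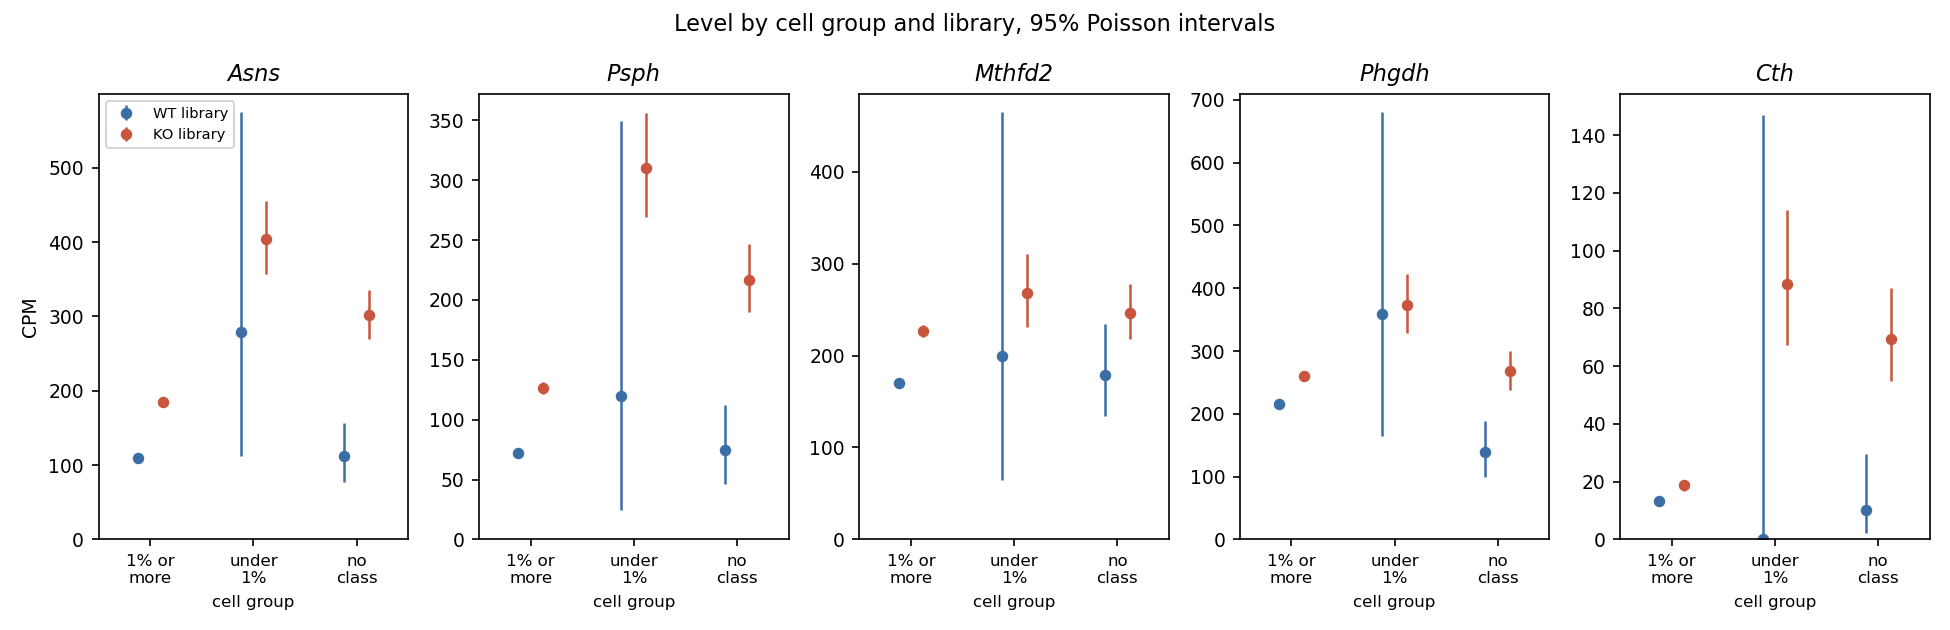
CPM of 5 enzyme genes in melanoma-like cells with 1% or more and under 1% mitochondrial UMIs and in unassigned cells high for no class, for the WT (blue) and KO (red) library with 95% Poisson intervals. The KO points of Asns, Psph and Cth are higher in the cells under 1% and in those of no class than in the other melanoma-like cells, and Cth had 0 UMIs in the 11 WT cells under 1%.

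In CAF-like cells, where Atf4 was deleted in KO hosts, counts were small and the members did not move together. Of the 5 members with at least 50 UMIs, 1 (Mthfd2) was at least 1.5-fold lower in KO and 0 at least 1.5-fold higher. Of 4181 genes counted the same way, 12.9% were at least 1.5-fold lower and 9.64% at least 1.5-fold higher. The members' median log2 ratio was -0.35, against -0.04 over all these genes.

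Mthfd2 and Pycr1 were lower in KO CAF-like cells, with intervals that just excluded 0 and did not do so under every alternative. Mthfd2 rested on 55 WT and 40 KO UMIs, 75.1 and 47.9 CPM, a log2 ratio of -0.65 (-1.28 to -0.04). Pycr1 had 20 and 9 UMIs, 27.3 and 10.8 CPM, a log2 ratio of -1.34 (-2.66 to -0.14). Aldh18a1 had 22 and 15 UMIs, 30.1 and 17.9 CPM, and its log2 ratio of -0.74 (-1.80 to 0.27) did not exclude 0. The Mthfd2 interval included 0 with the gate at 0.1 of the reference level (-0.59, -1.26 to 0.06) and with Leiden clusters in place of the gate (-0.38, -0.82 to 0.06), and that of Pycr1 in cells with 2000 to 10000 UMIs (-1.20, -2.53 to 0.03). Both proline enzymes lay under the 50 UMIs set for the count above. The expected free RNA level of Pycr1 in these cells was 0.105 CPM in WT and 0.356 CPM in KO, so hardly any of its UMIs there can be melanoma RNA by this estimate. For Mthfd2 the expected level was 6.55 and 10.3 CPM, and its log2 ratio was -0.86 after free RNA was subtracted, with no interval computed.

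For Asns, Phgdh, Psat1, Psph and Shmt2 no difference between WT and KO CAF-like cells was detectable at this depth. Asns, for which 29 and 41 UMIs were counted, was 39.6 and 49.1 CPM, a log2 ratio of 0.31 (-0.41 to 1.05). Phgdh was 38.3 and 29.9 CPM, Psat1 32.8 and 37.1 CPM, Psph 34.2 and 23.9 CPM and Shmt2 42.4 and 32.3 CPM. Each of these 4 intervals included 0, and the largest count among them was 31 UMIs. Shmt1 had 0 UMIs in WT, with an interval that reached up to 5.04 CPM, and 6 UMIs (7.18 CPM) in KO. With the floor of 3 UMIs (4.10 CPM) in place of the WT value, the KO level was 1.75-fold that of WT. The interval of the KO/WT ratio began at 1.03-fold, so these few UMIs only just excluded no difference. Cth had 1 UMI in each library, close to its free RNA level. Among cells in which Xist but no Y-linked gene was detected (152 WT, 52 KO), the Mthfd2 log2 ratio was -0.28 (-1.38 to 0.69), and only 1 member reached 50 UMIs. In KO CAF-like cells 12 of 18 counted ISR target genes lay below WT, all 11 counted G2/M genes were at least 1.5-fold lower and all 8 counted hypoxia genes at least 1.5-fold higher. The part of cell division, hypoxia and host sex in the lower Mthfd2 and Pycr1 was not tested.

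In macrophage-like cells, 2 of the 6 members with at least 50 UMIs (Asns and Shmt2) were at least 1.5-fold higher in KO and 0 at least 1.5-fold lower. The background over 6677 genes was 7.02% higher and 6.56% lower. The members' median log2 ratio was 0.37, against -0.01 over all these genes, but 0.083 after free RNA was subtracted and 0.094 with the gate at 0.1 of the reference level. Asns had 22 and 32 UMIs, 9.91 and 18.9 CPM, a log2 ratio of 0.93 (0.10 to 1.78). Free RNA alone was expected to give 5.63 CPM of Asns in WT and 10.9 CPM in KO, the larger part of each level. Shmt2 was 11.3 and 18.3 CPM, a log2 ratio of 0.70 (-0.11 to 1.52), with 3.71 and 4.82 CPM expected from free RNA.

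Psat1 and Mthfd2 were the members with most macrophage-like UMIs. Psat1 had 69 and 59 UMIs, 31.1 and 34.8 CPM, well over the 4.06 and 5.80 CPM expected from free RNA, and its log2 ratio was 0.16 (-0.36 to 0.69). Mthfd2 was 29.7 and 28.3 CPM, a log2 ratio of -0.07 (-0.64 to 0.49). Phgdh, at 15.3 and 18.9 CPM, had intervals that reached down to the free RNA level of 10.8 and 14.9 CPM, so its expression in these cells was not detectable above background. Psph was 11.7 and 15.9 CPM (log2 ratio 0.44, -0.39 to 1.28). Aldh18a1 had 16 and 7 UMIs, Shmt1 8 and 10, Cth 2 and 2 and Pycr1 0 and 1. The other host classes held 0 to 22 UMIs of any member in a library, and no interval of a KO/WT ratio in them that could be computed from both libraries excluded 0. In endothelial-like cells Mthfd2 was 52.5 CPM in WT from 19 UMIs and 34.1 CPM in KO from 4 UMIs, and Asns 35.9 and 34.1 CPM.

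**Figure D4:**
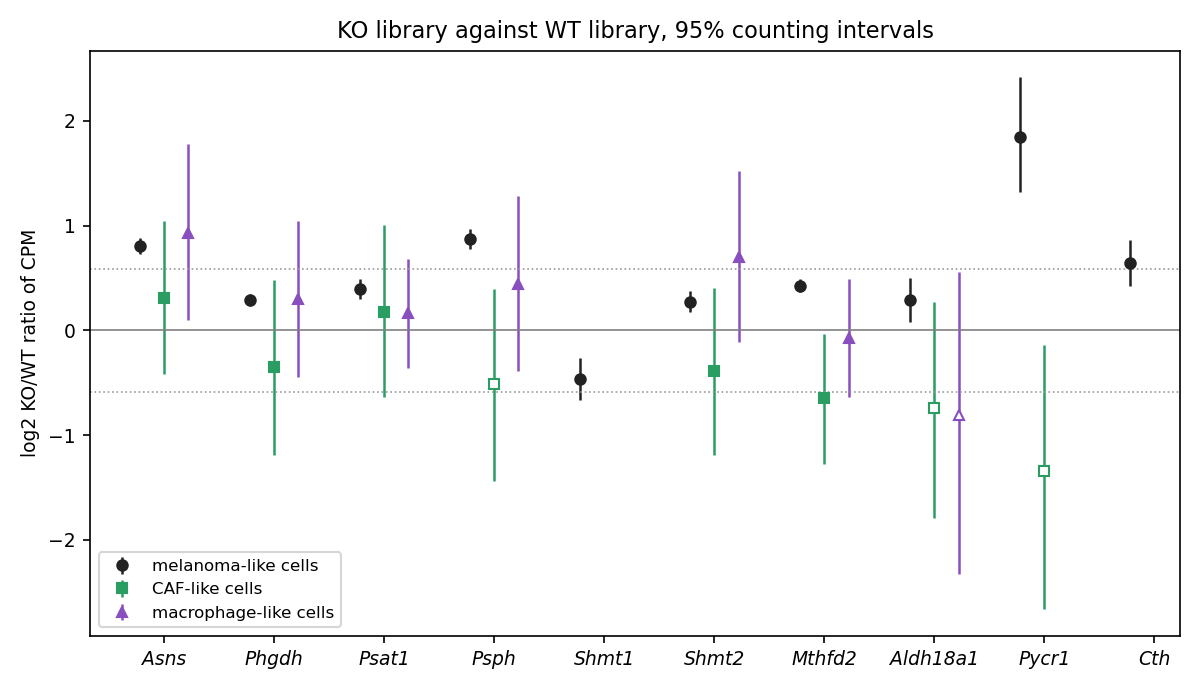
Log2 KO/WT ratio of CPM of each enzyme gene in melanoma-like (black circles), CAF-like (green squares) and macrophage-like cells (purple triangles), with 95% exact intervals for counting error. Open symbols rest on 20 to 49 UMIs over both libraries, members with fewer are left out, and dotted lines mark 1.5-fold. Pycr1 and Mthfd2 lie above 0 in melanoma-like and below 0 in CAF-like cells.

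The classes also differed in the level of the same enzyme within a library. Phgdh was 5.66-fold higher in melanoma-like than in CAF-like cells of WT tumours and 14.1-fold higher than in macrophage-like cells. Asns was 2.77-fold and 11.1-fold higher, and Mthfd2 2.26-fold and 5.72-fold. Psat1 was the member with the smallest gap to macrophage-like cells among those with at least 50 UMIs there, 2.42-fold in WT and 2.84-fold in KO. Pycr1 ran the other way: it was 15-fold higher in CAF-like than in melanoma-like cells of the WT library (27.3 against 1.82 CPM), and 1.64-fold in the KO library (10.8 against 6.57 CPM). The log2 ratio of melanoma-like to CAF-like Pycr1 was -3.91 (-4.73 to -3.04) in WT and -0.71 (-1.68 to 0.45) in KO, so its excess in CAF-like cells was beyond counting error in WT and not in KO. Aldh18a1 was 1.81-fold higher in CAF-like cells in WT and 0.883 of the melanoma-like level in KO. In WT tumours both proline enzymes were thus higher in CAF-like than in melanoma-like or macrophage-like cells.

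The wider pathway did not move as a whole in melanoma-like cells. Of 33 further genes of amino acid synthesis and one-carbon metabolism, 29 had at least 50 UMIs, 3 were at least 1.5-fold higher and 1 at least 1.5-fold lower in KO, with a median log2 ratio of -0.06. Aldh1l2, the mitochondrial formyltetrahydrofolate dehydrogenase, was 7.93 CPM in WT and 36.2 CPM in KO from 161 and 754 UMIs, a log2 ratio of 2.19 (1.94 to 2.44). Ass1, which joins citrulline and aspartate in arginine synthesis, was 10.7 and 21.7 CPM, a log2 ratio of 1.02 (0.79 to 1.26), and Gpt2, the mitochondrial alanine aminotransferase, 6.01 and 8.92 CPM, a log2 ratio of 0.57 (0.23 to 0.91). On the other side, Ahcy, which clears S-adenosylhomocysteine and whose pseudogenes could share its reads, had a log2 ratio of -0.74 and the threonine pathway enzyme Gcat -0.55. The 34 ISR target genes, which share Gpt2 with that list, had 13 of 32 counted genes at least 1.5-fold higher in KO and 0 lower, with a median of 0.48. In CAF-like cells 3 of 12 counted pathway genes were at least 1.5-fold higher and 2 lower, and in macrophage-like cells 1 of 17 higher and 1 lower.

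Across the 6 classes with at least 20 cells in each library, 12 points that share 2 libraries and their depth, the genes with the pattern most like each member were sought among 7908 genes by Pearson correlation of log2(CPM + 10). Asns and Psph shared their closest gene, Fam104a, at r = 0.97 and 0.96. The next were Ntmt1 and Me1, the cytosolic malic enzyme, for Asns and Rhod and Gars, the glycyl-tRNA synthetase, for Psph. The closest gene was Ylpm1 for Phgdh (0.96), Dclk2 for Psat1 (0.97), Rps27l for Shmt1 (0.94), Sdhaf3 for Shmt2 (0.98), Polr1c for Mthfd2 (0.96), Trrap for Aldh18a1 (0.95) and Rims2 for Cth (0.98). Pycr1 had under 500 UMIs and was not compared.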

How the data were processed

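Single-cell 10x libraries of 1 WT and 1 KO tumour pool were analysed from raw UMI counts per gene and barcode, which the authors deposited after alignment to GRCm38 and counting per Ensembl gene with Cell Ranger 3.1.0 (Seurat 3.2.1 is also named in the submitters' processing notes). Labels and methods differ on the kit version. The study's cell filter was applied (200 to 5000 genes, mitochondrial UMIs not above 7.5%). A cell belonged to a class if its marker share reached 0.25 of the class's reference level with at least 3 markers seen and no other class did so. No dendritic class was found. UMIs were summed per class and library (CPM), with exact Poisson and conditional binomial 95% intervals, which cover counting error only. Members with under 50 UMIs were left out of counts. A floor of 3 UMIs stood for 0. Free RNA was the melanoma marker level of a host class over that of the library (C1q genes for melanoma-like cells). Named genes were all members, the 3 pathway genes furthest in each direction with at least 200 UMIs, and the 3 closest genes by correlation. One result under this rule is not reported here. Members and lists were chosen with earlier results of these data known. Interval coverage was tested only on simulated Poisson counts, which lack the extra spread between cells, so it does not show coverage for these data. Doublets were removed only as an alternative (Scrublet, 96 WT and 47 KO cells). Gene positions came from GENCODE vM21 and promoters from RefSeq. Python 3.11.15, numpy 2.4.6, pandas 2.3.3, scipy 1.17.1, scanpy 1.11.5 and matplotlib 3.10.9 were used. Alternatives covered filters, gate, clusters, scaling, free RNA, shared barcodes, depth, host sex and count minimum.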

Additional observations from a re-analysis of the deposited data

Results flagged for a closer look

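Mthfd2 and Pycr1 lay on opposite sides of 0 in melanoma-like and CAF-like cells. The log2 KO/WT ratio of Mthfd2 was 0.43 in melanoma-like and -0.65 in CAF-like cells, and that of Pycr1 was 1.85 and -1.34. With 1 library per genotype the difference between the classes was not tested. Pycr1 in CAF-like cells rests on 20 and 9 UMIs. The CAF-like intervals excluded 0 as reported but included it for Mthfd2 with the gate at 0.1 of the reference level (-1.26 to 0.06), with Leiden clusters (-0.82 to 0.06) and in the Xist cells without Y-linked UMIs (-1.38 to 0.69), and for Pycr1 with 2000 to 10000 UMIs per cell (-2.53 to 0.03).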

How the results depend on the processing

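In melanoma-like cells each of the 10 members kept its direction in all 14 settings. The counts of 4 higher and 0 lower stayed within the limits set. Asns, Psph and Pycr1 were at least 1.5-fold higher in 14 of 14 and Cth in 11. With 2000 to 10000 UMIs per cell the log2 ratios of Asns (0.66), Phgdh (0.49), Shmt2 (0.43) and Mthfd2 (0.33) moved beyond the limits. The intervals of Aldh18a1 (0.09, -0.34 to 0.52) and Shmt1 (-0.39, -0.91 to 0.14) then included 0. Mthfd2 also moved with the mean over cells (0.36). The count of CAF-like members at least 1.5-fold lower, 1 as reported, was 0 with Leiden clusters in place of the gate, 0 with the mean over cells, 0 in cells in which Xist but no Y-linked gene was detected, 2 after free RNA was subtracted and 3 with a minimum of 20 UMIs. The count of macrophage-like members at least 1.5-fold higher, 2 as reported, was 1 with a mitochondrial limit of 15%, and 0 with the gate at 0.1 or 0.5 of the reference level, with 2000 to 10000 UMIs per cell and in the Xist cells, in part because fewer members reached 50 UMIs. The count of those lower was 1 in place of 0 with a minimum of 20 UMIs. The cause of the others was not tested. None of these counts and medians reversed, and their other 124 values stayed within the limits set. Leaving out cells under 1% mitochondrial UMIs and adding cells high for no class were chosen after seeing the data. No paired analysis was possible because the labels give 1 library of either genotype. Depth limits the host classes: no member exceeded 69 UMIs in a host class of 1 library.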
